A study of Rattus norvegicus with 60 samples.

Results

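The constitutive proteasome genes are the 45 protein-coding genes whose deposited symbol starts with Psma, Psmb, Psmc, Psmd, Psme, Psmf or Psmg followed by a number, taken from the 32545 genes of the count table and leaving out Psmb8, Psmb9 and Psmb10 of the immunoproteasome. The symbol rule uses no measured value, but the set was chosen with earlier results of these data known. They comprise 8 genes of the 20S alpha ring (Psma), 8 of the 20S beta ring (Psmb), 6 ATPases of the 19S base (Psmc), 14 genes named as non-ATPase subunits of the 19S cap (Psmd), 3 activators (Psme), the inhibitor Psmf1 and 4 assembly chaperones (Psmg). These roles follow the symbols, so chaperones of the 19S base with a Psmd symbol, such as Psmd9 and Psmd10, are counted with the Psmd genes. The symbol rule also takes in Psmc3ip, which is known as a partner of the meiotic recombination machinery and not as a proteasome subunit, so it was described apart. Psme3, the remaining PA28 gene, was not analysed here.

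The tissues sequenced were the cortex and the outer medulla of the kidney. They came from Dahl salt-sensitive rats (SS), an inbred strain that becomes hypertensive on a salt-rich diet, and from a line made from them in which Nox4, the gene of an NADPH oxidase that makes hydrogen peroxide, was knocked out (NOX4). Each strain was sampled on a control diet (LS), after 7 days (HS7) and after 21 days (HS21) of a diet with 4.0% NaCl, which gave 12 groups of 5 libraries. The labels give no sex, no age and no salt content of the control diet, and do not say whether each library came from its own rat or whether cortex and outer medulla came from the same rats, so the p-values below measure the spread between these libraries. All groups share the Dahl salt-sensitive background, and no group has another strain as control.

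The 26S proteasome is the protease that degrades proteins tagged with ubiquitin chains. Its 20S core is a barrel of alpha rings, which gate the entrance, around beta rings, in which Psmb6, Psmb7 and Psmb5 carry the caspase-like, trypsin-like and chymotrypsin-like active sites. The 19S cap receives the tagged protein, removes the chain and unfolds the protein with its ATPase ring. When proteasome activity falls short, the transcription factor NRF1 (gene Nfe2l1) is known to raise many of these genes together, and the related factor NRF2 (gene Nfe2l2) responds to oxidants and acts through the same antioxidant response element.

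The 60 libraries held between 11490491 and 29560916 gene counts each. Nox4 itself checked the labels: in cortex it was at 353 ± 89.0 CPM (counts scaled to a common library total; SD, n = 15) in SS and 65.8 ± 6.56 CPM in NOX4 with no overlap, and in outer medulla at 6.35 to 110.9 CPM against 1.83 to 15.1 CPM with overlap. Low-complexity libraries are those in which at least 10 genes were without a count although their median over the tissue was between 2 and 5 CPM. There were 11, all SS on LS or HS7, with 5 of cortex and 6 of outer medulla. Library names run in group order, with every SS library before every NOX4 library in its tissue. Strain and the order of the library names therefore cannot be told apart. Within SS the names run from LS to HS7 to HS21, so diet and name order cannot be told apart there either. In cortex each list of cell type markers had members that differed by strain, and in outer medulla some lists had none. Over all genes 31.7% differed by strain in cortex and 30.4% in outer medulla (edgeR, adjusted p under 0.05, mean of diets). In bulk tissue fewer cells of a type and less RNA per cell cannot be told apart. Of 5 proximal tubule segment 3 markers, 3 were lower in NOX4 cortex and all 5 were higher in NOX4 outer medulla. Their summed level was 940 to 4358 CPM in SS and 759.8 to 1859 CPM in NOX4 cortex, and 386 to 6471 CPM in SS and 1629 to 7142 CPM in NOX4 outer medulla. In cortex, all 5 podocyte and all 5 intercalated cell markers were higher in NOX4 and 4 of 5 stromal markers were lower. Podocyte sums there were 326 to 519 CPM in SS and 468 to 695 CPM in NOX4, and intercalated cell sums 239.8 to 478 CPM and 406 to 702 CPM. Stromal sums were 467 to 1186 CPM and 258 to 819 CPM in cortex, and 797 to 4595 CPM and 820.1 to 2078 CPM in outer medulla, where all 5 were lower in NOX4. Of the other lists, with the number higher and lower in NOX4 cortex and then in NOX4 outer medulla, markers of proximal tubule segments 1 and 2 had 4 and 0 of 6, then 2 and 0. Their sums in cortex were 9906 to 15303 CPM in SS and 10700 to 16021 CPM in NOX4. In outer medulla they were 212 to 10000 CPM (median 1005) in SS and 1250 to 5756 CPM (median 2777) in NOX4. The highest SS outer medulla library thus lay within the SS cortex range. Thick ascending limb markers had 1 and 2 of 5, then 0 and 0. Distal convoluted tubule (3 tested), principal cell (4) and endothelial (4) markers had 3, 4 and 2 higher in cortex with none lower, and none called in outer medulla. Macrophage and other leukocyte markers had 1 higher and 3 lower of 8, then 0 and 3 of 9. In outer medulla 2 podocyte markers were lower and no intercalated cell marker was called. Pvalb, a distal convoluted tubule marker, was at 0 in 10 of the 12 groups, and no other marker was at 0 in a group. Apart from a fit with the segment 3 markers as a covariate, the part of these cell types in the proteasome differences was not tested.

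Of the 45 genes, 42 had enough counts to be tested. Psma8, a testis-specific alpha subunit, had no count in any of the 60 libraries, and Psmb11, the catalytic subunit of the thymus, had 33 counts in all. Psme1, which pairs with Psme2 in the PA28 activator, had 193 counts in all 60 libraries, whereas Psme2 was at 50.7 ± 5.44 CPM (SD, n = 15) in SS cortex. The lowest gene that was tested, Psmd10 (gankyrin, a chaperone of the 19S base), had 1624 counts. For 18 of the 45 genes RefSeq lists pseudogenes of the same name, 44 in all, among them 3 of Psme1, 8 of Psmb3 and 5 of Psma6, and how the counting divided reads between a gene and such copies was not tested.

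Levels per gene length differed between roles in their medians, with ranges that overlap. On the scale of CPM per kilobase of deposited gene length, the median over 30 cortex libraries was 97.0 for the 7 tested beta ring genes, 80.9 for the 7 tested alpha ring genes, 65.4 for the 6 ATPases, 44.7 for the 14 non-ATPase genes, 31.7 for the 2 tested activators and 21.3 for the 4 chaperones. In outer medulla the medians were 89.0, 70.6, 52.5, 37.7, 39.2 and 21.8 in the same order of roles, which puts the activators above the non-ATPase genes there. Within roles the cortex levels ran from 38.4 to 168 in the beta ring, 32.8 to 154 in the alpha ring, 32.0 to 82.5 among the ATPases and 2.59 to 93.4 among the non-ATPase genes. Psmb4 had the highest level in cortex (168 ± 11.2 CPM per kilobase, SD over 30 libraries) and Psma7 in outer medulla (157 ± 24.4), where Psmb4 was at 149 ± 19.99, so these 2 lie within each other's spread. Psmd10 was lowest in both tissues at 2.59 ± 0.923 and 2.80 ± 1.38 CPM per kilobase. Among the catalytic subunits, Psmb5 (99.6 ± 7.44) and Psmb6 (97.0 ± 12.8) lay within each other's spread in cortex and Psmb7 was lower (38.4 ± 4.83). The alpha ring gene with the lowest level per kilobase was Psma3 (32.8 ± 5.88 in cortex), whose deposited length of 3559 bases is the largest of the alpha genes.

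**Figure D1:**
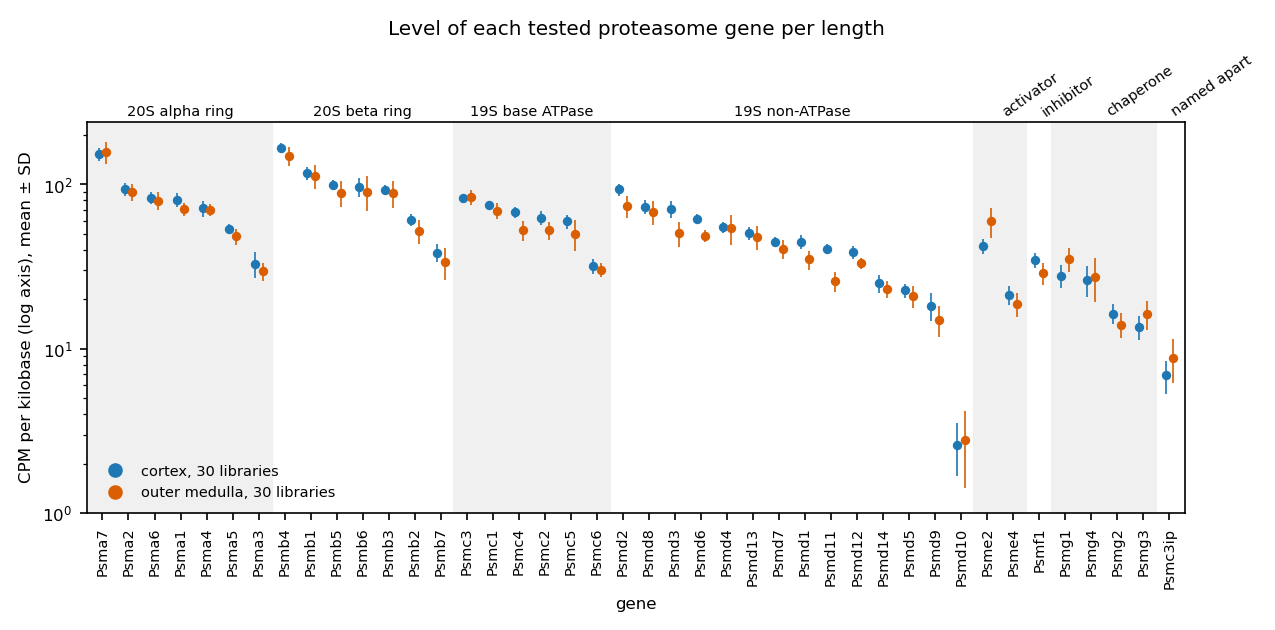
Level of each of the 42 tested proteasome genes in CPM per kilobase of deposited gene length (log axis), as mean ± SD over 30 cortex (blue) and 30 outer medulla (orange) libraries, sorted within each role. Beta and alpha ring genes lie highest (cortex medians 97.0 and 80.9) and Psmd10 lowest (2.59 in cortex).

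The comparison of NOX4 with SS asks how loss of NOX4 goes with proteasome transcripts, and averages the difference over the 3 diets. In cortex, 11 of the 42 tested genes were higher and 9 were lower in NOX4 (edgeR quasi-likelihood test, adjusted p under 0.05), against 31.7% of the 15179 genes tested that were called in either direction, 16.7% higher and 15% lower. The median log2 fold change of the 42 genes was 0.02, with 0.00 over all genes. No gene differed by as much as 1.5-fold, and the largest called difference was 1.302-fold. The directions split by role: 4 of 7 beta ring genes were higher and none lower, while 4 of 7 alpha ring genes were lower and 1, Psma7, was higher. These splits by role were noticed after the values were seen and were not tested.

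Among the beta ring genes in cortex, Psmb6 was higher in NOX4 by 0.26 ± 0.05 (adjusted p = 0.000281) on the log2 scale (fold changes are given as log2 ± SE with the edgeR adjusted p), Psmb5 by 0.14 ± 0.03 (adjusted p = 0.00213), Psmb1 by 0.13 ± 0.04 (adjusted p = 0.0231) and Psmb2 by 0.13 ± 0.04 (adjusted p = 0.0202). Psmb7 (-0.10 ± 0.06), Psmb3 and Psmb4 did not pass. In the alpha ring, Psma3 was lower with a log2 fold change of -0.27 ± 0.05 (adjusted p = 0.000207), Psma6 of -0.10 ± 0.03 (adjusted p = 0.0207), Psma2 of -0.10 ± 0.04 (adjusted p = 0.0332) and Psma1 of -0.09 ± 0.03 (adjusted p = 0.0405), while Psma7 was at 0.18 ± 0.04 (adjusted p = 0.000477). Of the 6 ATPases, which unfold the substrate, Psmc6 was lower at -0.22 ± 0.03 (adjusted p = 2.71e-05) and Psmc5 higher at 0.17 ± 0.04 (adjusted p = 0.00416). Of the 14 non-ATPase genes, Psmd9, which acts as a chaperone of the base, was at 0.36 ± 0.08 (adjusted p = 0.00127), Psmd3 at 0.24 ± 0.05 (adjusted p = 0.000245) and the ubiquitin receptor Psmd4 at 0.12 ± 0.04 (adjusted p = 0.0266). The lid and base subunits Psmd1 (-0.16 ± 0.04), Psmd12 (-0.11 ± 0.04) and Psmd14 (-0.17 ± 0.05), the last of which is the enzyme that cuts ubiquitin chains off the substrate, were lower in NOX4. So was the activator Psme4 (-0.19 ± 0.05, adjusted p = 0.00275). The chaperones Psmg4 (0.38 ± 0.11, adjusted p = 0.00839) and Psmg3 (0.26 ± 0.09, adjusted p = 0.0232), which help build the alpha ring, were higher, and Psmg1 and Psmg2, the other chaperone pair, did not pass.

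In outer medulla, 20 of 42 tested genes were higher and 2 were lower in NOX4, where 30.4% of the 15799 genes tested were called in either direction, 15.4% higher and 15.1% lower. The median log2 fold change was 0.16 for the proteasome genes and -0.02 for all genes, and the largest called difference was 1.42-fold. Of the beta ring, 5 of 7 were higher and the remaining 2, Psmb3 and Psmb7, lay above 0 without passing. Psmb6 (0.51 ± 0.07, adjusted p = 1.35e-05), Psmb5 (0.38 ± 0.06, adjusted p = 4.8e-05), Psmb1 (0.23 ± 0.07, adjusted p = 0.0106), Psmb2 (0.21 ± 0.08, adjusted p = 0.0384) and Psmb4 (0.20 ± 0.06, adjusted p = 0.00995) were called. Of the ATPases, 4 of 6 were higher, led by Psmc5 (0.30 ± 0.09) and Psmc4 (0.19 ± 0.06). Of the non-ATPase genes, 6 of 14 were higher, with the scaffold subunit Psmd2 at 0.28 ± 0.06 (adjusted p = 0.000903), Psmd3 at 0.31 ± 0.06 (adjusted p = 0.000681) and Psmd8 at 0.30 ± 0.07 (adjusted p = 0.00165). Psmf1 (PI31, an inhibitor of the isolated core in vitro) was higher at 0.23 ± 0.06 (adjusted p = 0.0073), and so were the chaperones Psmg4 (0.42 ± 0.13, adjusted p = 0.0183) and Psmg1 (0.25 ± 0.07, adjusted p = 0.0103). The 2 lower genes were Psma3 (-0.18 ± 0.05, adjusted p = 0.00871) and Psme4 (-0.31 ± 0.06, adjusted p = 0.000675). Psmc3ip, the gene that belongs to another process, was called higher (0.38 ± 0.14, adjusted p = 0.0379) but lost its call in 10 of 36 alternatives.

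Counted over both tissues, 10 genes were higher in NOX4 in cortex and in outer medulla, which were Psma7, Psmb1, Psmb2, Psmb5, Psmb6, Psmc5, Psmd3, Psmd4, Psmd9 and Psmg4. Only Psma3 and Psme4 were lower in both, and no gene was called in opposite directions. Higher in both were thus 23.8% of the 42 genes and 7.30% of the 14856 genes tested in both tissues, lower in both 4.76% and 5.64%, and opposite 0% and 2.52%, which are given as a description with no test. Called in neither were 12 genes (28.6%, against 51.7% of all genes), which were Psma4, Psma5, Psmb3, Psmb7, Psmc3, Psmd5, Psmd6, Psmd7, Psmd10, Psmd11, Psme2 and Psmg2. Of these, Psmb3, Psmc3 and Psmd10 were called in none of the 20 comparisons made. The genes called higher in cortex had a median deposited length of 922 bases (11 genes) and those called lower a median of 1968 bases (9 genes), and 3 of the 11 and 7 of the 9 have a RefSeq pseudogene of their name. The part of length or of such copies in the result was not tested. With the mean level of the segment 3 markers as a covariate, 3 genes were higher and 2 lower in cortex against 9.07% of all genes, and 5 higher and 1 lower in outer medulla against 8.31%. Psmb6 and Psmb5 were among those still called in both tissues. In outer medulla that covariate also took the median log2 fold change from 0.16 to 0.06. Without the low-complexity libraries the counts were 10 higher and 8 lower in cortex, where 32.9% of all genes were called (31.7% with all libraries), and 20 higher and 2 lower in outer medulla, where 40.9% were called, 21.0% higher and 19.9% lower.

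**Figure D2:**
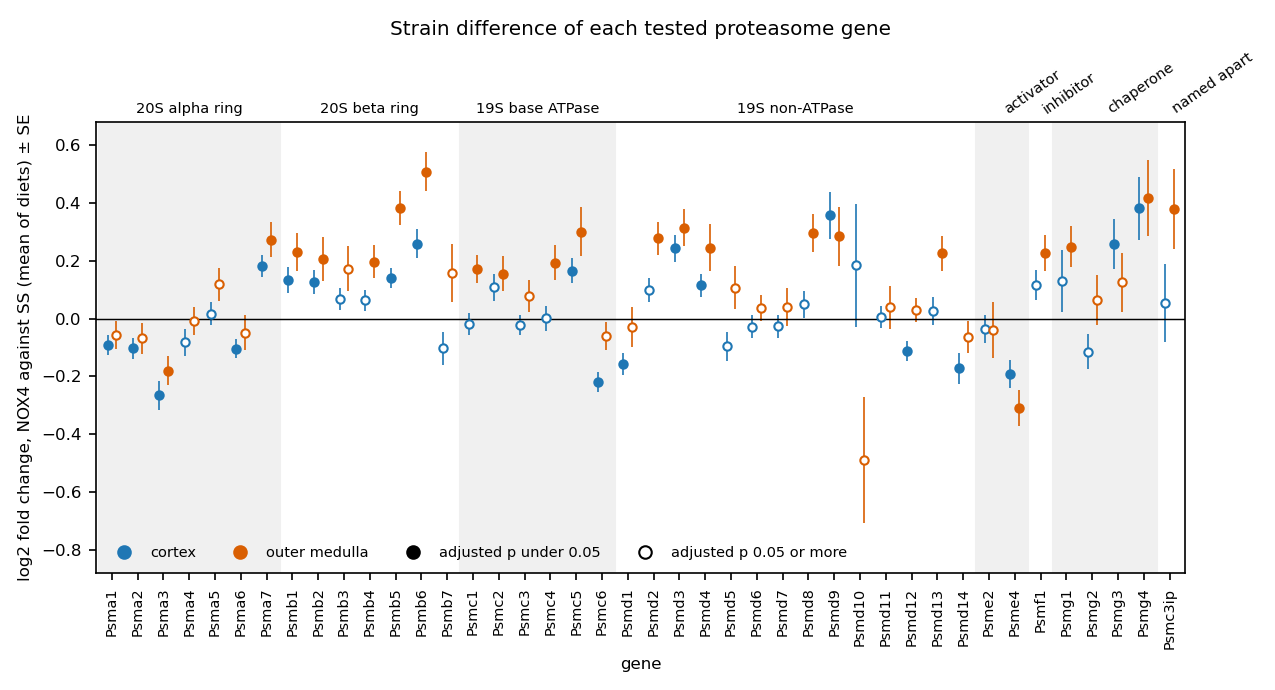
Log2 fold change of NOX4 against SS, averaged over the 3 diets, for each of the 42 tested genes with its SE, in cortex (blue) and outer medulla (orange); filled points passed adjusted p under 0.05 and open points did not. Psmb6 and Psmb5 of the beta ring are high in both tissues, Psma3 and Psme4 are low in both, and in outer medulla 20 genes lie above 0 with a call.

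Promoter sequences are shown for Psmb6, Psmb5 and Psmd3, which were higher in NOX4 in both tissues, and for Psma3 and Psme4, which were lower in both, because all 5 hold a match to the core of the antioxidant response element. That of Psmg4, which was also higher in both tissues, is shown as one without a match. They are RefSeq promoters of the GRCr8 assembly, from 250 bases before to 50 bases after the annotated start, at chr10:55737638-55737937 on the plus strand for Psmb6, chr15:32047330-32047629 on the minus strand for Psmb5, chr10:84139688-84139987 on the plus strand for Psmd3, chr6:95219499-95219798 on the plus strand for Psma3, chr14:108706393-108706692 on the plus strand for Psme4 and chr17:30923324-30923623 on the minus strand for Psmg4. Capitals mark matches on either strand to TGACNNNGC, the core of the element, or to CCAAT, the box bound by the factor NF-Y.
Psmb6: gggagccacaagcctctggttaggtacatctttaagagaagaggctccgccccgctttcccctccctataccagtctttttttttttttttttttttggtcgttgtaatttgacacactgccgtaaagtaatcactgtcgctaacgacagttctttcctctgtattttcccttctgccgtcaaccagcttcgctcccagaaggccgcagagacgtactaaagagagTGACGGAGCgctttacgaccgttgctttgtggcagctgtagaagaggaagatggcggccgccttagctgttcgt
Psmb5: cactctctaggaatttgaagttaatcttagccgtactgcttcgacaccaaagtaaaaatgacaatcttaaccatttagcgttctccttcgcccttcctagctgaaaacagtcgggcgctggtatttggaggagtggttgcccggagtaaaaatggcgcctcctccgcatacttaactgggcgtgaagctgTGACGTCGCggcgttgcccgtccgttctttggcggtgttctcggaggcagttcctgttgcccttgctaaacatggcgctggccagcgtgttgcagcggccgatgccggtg
Psmd3: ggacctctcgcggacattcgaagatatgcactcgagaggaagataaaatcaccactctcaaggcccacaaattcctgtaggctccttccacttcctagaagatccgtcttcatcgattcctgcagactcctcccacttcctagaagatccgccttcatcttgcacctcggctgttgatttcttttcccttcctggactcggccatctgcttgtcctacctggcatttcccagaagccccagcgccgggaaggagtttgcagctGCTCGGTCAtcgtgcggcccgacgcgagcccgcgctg
Psma3: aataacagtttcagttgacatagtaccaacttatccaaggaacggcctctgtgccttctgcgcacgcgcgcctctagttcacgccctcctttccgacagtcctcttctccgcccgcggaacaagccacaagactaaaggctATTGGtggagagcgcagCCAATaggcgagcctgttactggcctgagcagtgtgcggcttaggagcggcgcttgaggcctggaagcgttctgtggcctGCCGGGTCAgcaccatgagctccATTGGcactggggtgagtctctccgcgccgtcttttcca
Psme4: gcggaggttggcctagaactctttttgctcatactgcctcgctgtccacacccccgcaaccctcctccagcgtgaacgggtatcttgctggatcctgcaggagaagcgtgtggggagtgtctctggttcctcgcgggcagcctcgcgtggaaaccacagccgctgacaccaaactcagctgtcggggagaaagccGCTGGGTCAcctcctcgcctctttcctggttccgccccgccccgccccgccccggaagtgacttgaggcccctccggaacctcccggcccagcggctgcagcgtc
Psmg4: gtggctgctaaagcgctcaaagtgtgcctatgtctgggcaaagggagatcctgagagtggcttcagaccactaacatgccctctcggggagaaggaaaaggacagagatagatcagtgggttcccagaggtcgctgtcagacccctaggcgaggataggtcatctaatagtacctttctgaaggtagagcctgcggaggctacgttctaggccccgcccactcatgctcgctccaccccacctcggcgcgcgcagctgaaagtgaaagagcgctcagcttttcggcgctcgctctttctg
Of the 45 genes, 40 had a promoter in the table. The element core was found in 8 of these 40 (20%), which were Psma3, Psmb2, Psmb5, Psmb6, Psmd1, Psmd3, Psmd9 and Psme4, against 12.2% of all 27457 promoters of the same length. CCAAT was found in 19 of 40 (47.5%) against 37.7%. Of the 9 promoters of genes higher in both tissues 5 held the element core, as did both promoters of genes lower in both. None of the 10 promoters of genes called higher only in outer medulla and none of the 11 of genes called in neither tissue held it, nor did that of the gene higher in cortex only, while 1 of the 5 of genes lower in cortex only did. A match is a description of the letters in this window, and these shares were not tested.

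Psmb6, the subunit with the caspase-like site, was the gene with the largest called difference in outer medulla over the mean of diets. In SS outer medulla it was at 52.1, 47.2, 52.6, 56.4 and 52.0 CPM in the 5 libraries on LS and at 72.9, 78.5, 65.5, 69.8 and 80.9 CPM at HS21. In NOX4 outer medulla it was at 78.8, 88.4, 80.0, 93.8 and 71.6 CPM on LS and at 89.2, 85.1, 87.0, 89.3 and 74.5 CPM at HS21. All 5 SS libraries on LS lay below every NOX4 library on LS, and below every SS library at HS21. At HS21 the strains overlapped, with 3 of 5 SS libraries below the lowest NOX4 library. Over all diets Psmb6 was at 60.8 ± 11.7 CPM (SD, n = 15) in SS and 85.7 ± 11.1 CPM (SD, n = 15) in NOX4, and 12 of 15 SS libraries lay below the lowest NOX4 library. At HS7 in outer medulla it was at 46.3, 50.5, 70.7, 51.9 and 65.0 CPM in SS and 72.0, 79.1, 106, 109 and 80.6 CPM in NOX4, again without overlap. In cortex it was at 56.1, 50.8, 52.8, 55.6 and 47.2 CPM in SS on LS and at 69.9, 65.4, 63.7, 67.5 and 65.5 CPM in NOX4 on LS, without overlap, and at HS7 4 of 5 SS libraries (61.5, 41.0, 67.4, 47.0 and 48.8 CPM) lay below every NOX4 library (70.3, 71.0, 69.5, 66.1 and 64.3 CPM). After 21 days of salt the cortex values were 67.8, 57.5, 59.9, 61.7 and 65.7 CPM in SS and 62.6, 65.9, 68.1, 66.6 and 67.0 CPM in NOX4, which overlap.

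Psmb5, the subunit with the chymotrypsin-like site that clinical proteasome inhibitors bind, had lower values in SS on LS and at HS21 in cortex without overlap, while the strains overlapped at HS7. It was at 75.5, 75.7, 65.5, 72.9 and 77.5 CPM in SS and 81.7, 83.9, 78.5, 80.7 and 78.8 CPM in NOX4 on LS, and at 78.0, 74.5, 69.7, 79.4 and 79.2 CPM in SS and 81.7, 81.9, 80.0, 81.2 and 79.8 CPM in NOX4 at HS21. At HS7 it was at 69.0, 77.7, 71.1, 67.4 and 63.9 CPM in SS and 86.1, 82.3, 71.6, 78.5 and 82.0 CPM in NOX4, with 4 of 5 SS libraries below every NOX4 library. On LS and at HS21 the groups did not overlap, although the HS21 difference did not pass (0.09 ± 0.06, adjusted p = 0.662). In outer medulla it was at 76.3 ± 9.88 CPM (SD, n = 15) in SS and 99.3 ± 9.02 CPM (SD, n = 15) in NOX4, with 11 of 15 SS libraries below the lowest NOX4 library. Its group means there were 74.1, 71.0 and 83.7 CPM in SS on LS, HS7 and HS21, and 95.8, 103 and 99.1 CPM in NOX4. Psmb7, which has the trypsin-like site, was at 59.7 ± 8.67 CPM (SD, n = 15) in SS and 55.4 ± 4.99 CPM (SD, n = 15) in NOX4 cortex, and at 61.2 ± 15.1 CPM (SD, n = 15) and 67.9 ± 10.9 CPM (SD, n = 15) in outer medulla, with overlap in both. Its group means in cortex were 66.1, 60.3 and 52.8 CPM in SS on LS, HS7 and HS21 and 56.3, 56.5 and 53.4 CPM in NOX4. In outer medulla they were 53.2, 69.7 and 60.7 CPM in SS on LS, HS7 and HS21 and 65.5, 70.3 and 67.9 CPM in NOX4.

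Psma3 was the alpha ring gene with the largest strain difference in cortex over the mean of diets. In SS cortex it was at 113, 113, 150.4, 104 and 142 CPM on LS, 126, 152, 101, 119 and 122 CPM at HS7 and 87.1, 88.2, 96.0, 93.9 and 91.2 CPM at HS21. In NOX4 cortex it was at 93.0, 96.6, 94.3, 97.1 and 96.2 CPM on LS and 91.99, 99.0, 92.2, 91.6 and 98.8 CPM at HS21. All SS libraries on LS and HS7 were above all NOX4 libraries, and the SS libraries at HS21 were not. In outer medulla the same gene was at 150.5, 126, 135, 172 and 150.1 CPM in SS on LS, 116, 113, 117, 112 and 103 CPM in SS at HS21 and 109, 111, 112, 121 and 106 CPM in NOX4 on LS. The SS libraries on LS again did not overlap with either of the other groups. Psmc6 in cortex ranged from 63.0 to 83.3 CPM with a median of 71.4 in SS and from 57.7 to 66.6 CPM with a median of 62.7 in NOX4, with 12 of 15 SS libraries above the highest NOX4 library.

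Of the activators, Psme4 (PA200, which caps the core in place of the 19S cap) was lower in NOX4 in both tissues. In cortex it was at 139, 141, 189.8, 146 and 140.3 CPM in SS and 117, 131, 121, 132 and 132 CPM in NOX4 on LS, which do not overlap. At HS21 it was at 128, 126, 122, 121 and 125 CPM in SS and 124, 126, 126, 115 and 131 CPM in NOX4, which do. In outer medulla it was at 185, 149, 219, 196 and 199 CPM in SS on LS and 133, 138, 149, 139.8 and 148 CPM in NOX4 on LS. There 4 of the 5 SS libraries were above every NOX4 library. Psme2, a subunit of the interferon-induced PA28 activator, did not differ between strains beyond its spread (-0.04 ± 0.05 in cortex, -0.04 ± 0.10 in outer medulla). Its group means in cortex were 46.0, 51.5 and 54.4 CPM in SS on LS, HS7 and HS21 and 50.4, 47.1 and 50.4 CPM in NOX4, and in outer medulla they were 84.5, 88.6 and 101 CPM in SS on LS, HS7 and HS21 and 78.4, 100.5 and 88.2 CPM in NOX4. Its outer medulla values at HS7 in NOX4 were 82.0, 72.9, 127, 145 and 75.6 CPM, where 2 libraries stood well above the other 3. The chaperone Psmg4 stood apart in the same 2 libraries of that group, at 16.7, 18.3, 29.5, 29.9 and 15.1 CPM. In cortex Psmg4 was at 11.3, 11.0, 9.33, 3.05 and 12.3 CPM in SS and 15.2, 13.7, 16.5, 13.0 and 14.6 CPM in NOX4 on LS, without overlap, and the SS library at 3.05 CPM, which is of low complexity, was far the lowest.

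**Figure D3:**
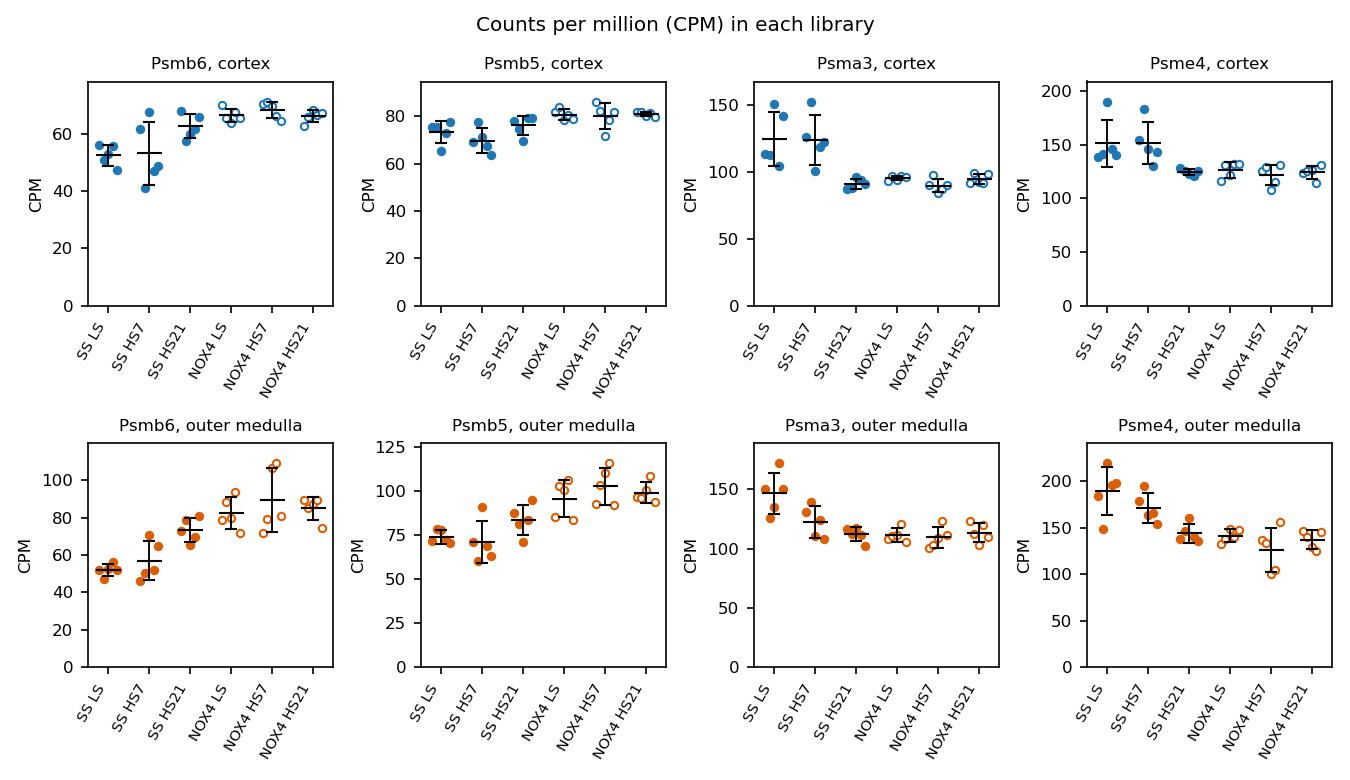
CPM of Psmb6, Psmb5, Psma3 and Psme4 in each library (points; filled SS, open NOX4) of cortex (top) and outer medulla (bottom), by strain and diet, with the mean and SD of each group of 5. Psmb6 rises from SS on LS to SS at HS21 and Psma3 falls, to values that overlap with those of NOX4; Psmb5 in SS cortex lies below NOX4 at LS and HS21 and overlaps with it at HS7.

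The strain difference was then taken on each diet. In cortex 7 genes were higher and 8 lower in NOX4 on LS, where 22% of all genes were called, 11.7% higher and 10.3% lower. At HS7 there were 7 higher and 9 lower (17.4% of all genes, 9.61% higher and 7.77% lower). At HS21 none was called (1.00% of all genes, 0.336% higher and 0.665% lower). In outer medulla 6 were higher and 3 lower on LS (14.8% of all genes, 8.80% higher and 6.05% lower). At HS7 there were 6 higher and 1 lower (9.61%, 5.23% higher and 4.39% lower), and at HS21 none (1.63%, 0.304% higher and 1.33% lower). At HS21 2 of the 42 genes in each tissue had an unadjusted p under 0.05. Over all genes tested that was 1729 of 15179 in cortex and 2804 of 15799 in outer medulla. DESeq2 called no proteasome gene at HS21, against 2.48% of all genes in cortex and 4.40% in outer medulla. The lack of calls at HS21 depended on the fit. Fitting the HS21 groups of a tissue alone called 1 gene higher in cortex (8.46% of all genes) and 4 higher in outer medulla (24.2%). On LS the alpha ring had 5 of 7 genes lower in NOX4 cortex and none higher. The smallest p values on LS were those of Psmc6 (-0.31 ± 0.06, adjusted p = 0.000641), Psma3 (-0.38 ± 0.09, adjusted p = 0.00243) and Psmd9 (0.59 ± 0.14, adjusted p = 0.00389) in cortex, and of Psmb6 (0.66 ± 0.12, adjusted p = 0.000977), Psmd2 (0.46 ± 0.10, adjusted p = 0.00424) and Psma3 (-0.39 ± 0.09, adjusted p = 0.00478) in outer medulla. At HS7 they were Psma3 (-0.47 ± 0.09), Psma7 (0.29 ± 0.07) and Psmd3 (0.35 ± 0.08) in cortex and Psmb6 (0.65 ± 0.12), Psmb5 (0.54 ± 0.10) and Psme4 (-0.44 ± 0.11) in outer medulla, where the largest called fold change was that of Psmg4 (0.73 ± 0.23, adjusted p = 0.0441). At HS21 in outer medulla, 38 of the 42 genes lay above 0 with a median log2 fold change of 0.11.

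The calls at HS7 depended on the libraries. Fitting the compared groups alone left 1 call in cortex, Psma3, where the fit of all cortex groups gave 16, and 0 in outer medulla, where the fit of all groups gave 7. Over all genes those fits called 1.29% in cortex and 0% in outer medulla, against 17.4% and 9.61% in the fits of all groups. In outer medulla at HS7, leaving out a single library gave between 2 calls (without SS replicate 2, NOX4 replicate 3 or NOX4 replicate 4) and 17 calls (without SS replicate 3). Leaving out SS replicate 1 gave 4 calls, and leaving out NOX4 replicate 1 or 5 gave 11 each. In cortex at HS7, leaving out SS replicate 2 or NOX4 replicate 1 gave 9 calls and leaving out NOX4 replicate 3 gave 10. Without the low-complexity libraries the LS calls were 3 higher and 3 lower in cortex (10.4% of all genes) and 4 higher and 1 lower in outer medulla (11.3%), and the HS7 calls in outer medulla were 15 higher and 1 lower (16.9%).

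In SS, the effect of 21 days of salt was compared with LS. In cortex 4 proteasome genes rose and 10 fell, with 16.5% of all genes called, 8.42% higher and 8.04% lower. The alpha ring made up 5 of the 10 that fell: Psma1 (-0.31 ± 0.06, adjusted p = 0.00113), Psma3 (-0.45 ± 0.09, adjusted p = 0.00121), Psma6 (-0.26 ± 0.06, adjusted p = 0.00355), Psma2 (-0.27 ± 0.06, adjusted p = 0.00438) and Psma4 (-0.31 ± 0.08, adjusted p = 0.00961). Psmb7, Psmc6, Psmd1, Psmd12 and Psme4 also fell, by log2 fold changes of -0.32 ± 0.10, -0.20 ± 0.06, -0.24 ± 0.07, -0.21 ± 0.06 and -0.28 ± 0.08. The 4 that rose were Psmg4 (0.59 ± 0.19, adjusted p = 0.0337), Psmd9 (0.40 ± 0.14, adjusted p = 0.0498), Psmb6 (0.25 ± 0.09, adjusted p = 0.0475) and Psme2 (0.24 ± 0.08, adjusted p = 0.0498). In outer medulla Psma3 (-0.39 ± 0.09, adjusted p = 0.00607), Psme4 (-0.40 ± 0.11, adjusted p = 0.0213), Psma2 (-0.34 ± 0.09) and Psmd12 (-0.22 ± 0.07) fell and Psmb6 rose (0.50 ± 0.12, adjusted p = 0.0091), with 9.86% of all genes called, 5.29% higher and 4.56% lower. Without the low-complexity libraries, which include 3 of the 5 SS libraries on LS in each tissue, no gene rose and 5 fell in cortex (5.95% of all genes called), and 1 rose and 1 fell in outer medulla (8.66%). In cortex the count of 14 was 9 without SS LS replicate 3, 7 without SS HS21 replicate 3 and 9 without SS HS21 replicate 4 or 5. In outer medulla the count of 5 was 3 without SS HS21 replicate 1 or 3 and 2 without SS HS21 replicate 4.

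After 7 days of salt no proteasome gene was called in SS in either tissue (edgeR; in cortex 2.25% of all genes were called, 1.17% higher and 1.07% lower, and in outer medulla 2.37%, 1.55% higher and 0.817% lower). At an unadjusted p under 0.05 there were 7 genes in cortex and 5 in outer medulla, and DESeq2 called 0 and 1. In NOX4 no proteasome gene and no other gene was called by edgeR after 7 or 21 days in either tissue (0% of all genes). The unadjusted count was 0 at both times in cortex, against 782 of all 15179 genes at HS7 and 236 at HS21. In outer medulla it was 2 at HS7 and 1 at HS21, against 2162 and 249 of all 15799. DESeq2 called no proteasome gene. Over all genes it called 0.119% at HS7 and 0.0462% at HS21 in cortex, and 0.852% and 0.0317% in outer medulla. The difference between the strains in their response from LS to HS21 was tested as an interaction, and no proteasome gene passed in cortex (edgeR, 1.08% of all genes, 0.514% positive and 0.567% negative) or outer medulla (0.0253%, 0.0127% in each direction). At an unadjusted p under 0.05 there were 11 and 5 of 42, against 2438 of all 15179 genes and 1466 of all 15799. DESeq2 called 3 in cortex (4.07% of all genes) and 1 in outer medulla (0.792%). The smallest adjusted p in cortex was that of Psma3 (0.44 ± 0.12, adjusted p = 0.072), which fell in SS (-0.45 ± 0.09) and was at -0.01 ± 0.09 in NOX4. These comparisons and the strain comparisons on LS share the SS libraries on LS.

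**Figure D4:**
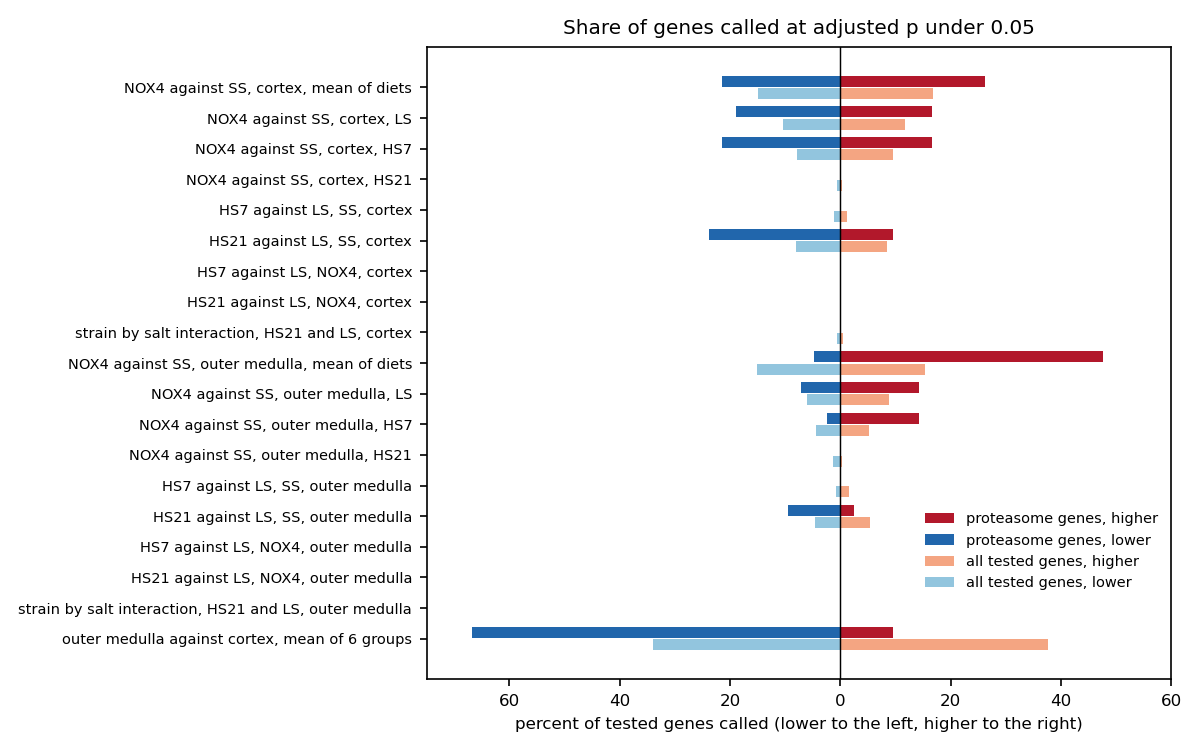
Percent of tested genes called at adjusted p under 0.05 in each comparison, lower to the left and higher to the right, for the 42 proteasome genes (dark bars) and for all genes tested (pale bars). In outer medulla 47.6% of the proteasome genes were higher in NOX4 against 15.4% of all genes; in the comparison of tissues 66.7% were lower in outer medulla against 34.0%.

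The alpha and beta ring subunits assemble in equal numbers, and the ratio of their summed CPM was described in each library. It was chosen after the gene values were seen and was not tested. CPM are not scaled by gene length, so the ratio can be compared between groups but does not measure the balance of transcript numbers. Per kilobase the cortex median was higher for the beta ring than for the alpha ring (97.0 against 80.9). In cortex the alpha-to-beta ratio was 1.13, 1.23, 1.31, 1.14 and 1.197 in SS on LS, 1.21, 1.19, 1.13, 1.14 and 1.19 at HS7 and 1.01, 1.05, 1.07, 1.01 and 0.989 at HS21. In NOX4 cortex it was 1.03, 1.03, 1.01, 1.03 and 1.01 on LS and 0.973, 1.04, 0.996, 0.951 and 1.05 at HS21. Every SS cortex library on LS or HS7 lay above every other cortex library. In outer medulla it was 1.34, 1.34, 1.38, 1.39 and 1.54 in SS on LS, 1.26, 1.32, 1.03, 1.25 and 1.17 at HS7 and 1.06, 1.099, 1.13, 1.09 and 1.00 at HS21. In NOX4 outer medulla it was 1.09, 1.03, 1.05, 1.04 and 1.104 on LS and 1.02, 1.03, 0.997, 1.04 and 1.09 at HS21. All SS libraries on LS lay above all NOX4 libraries, while those at HS7 and HS21 overlapped with NOX4.

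Among SS cortex libraries on LS or HS7, the ratio was 1.14 to 1.31 in the 5 of low complexity and 1.13 to 1.197 in the other 5, and the 15 NOX4 cortex libraries were at 0.951 to 1.06. In outer medulla it was 1.03 to 1.54 in 6 low-complexity libraries, 1.17 to 1.39 in the other 4 and 0.928 to 1.104 in the 15 of NOX4, so 1 low-complexity library, SS HS7 replicate 3, lay within the NOX4 range. Without Psma3 the mean ratio in cortex was 0.965 ± 0.0413 in SS on LS, 0.853 ± 0.0251 in SS at HS21 and 0.852 ± 0.0114 in NOX4 on LS (SD, n = 5). The summed level of all 45 genes had group means between 3032 and 3152 CPM in cortex, while in outer medulla the group means were 3380.4 to 3424 CPM in SS and 3639 to 3771 CPM in NOX4.

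**Figure D5:**
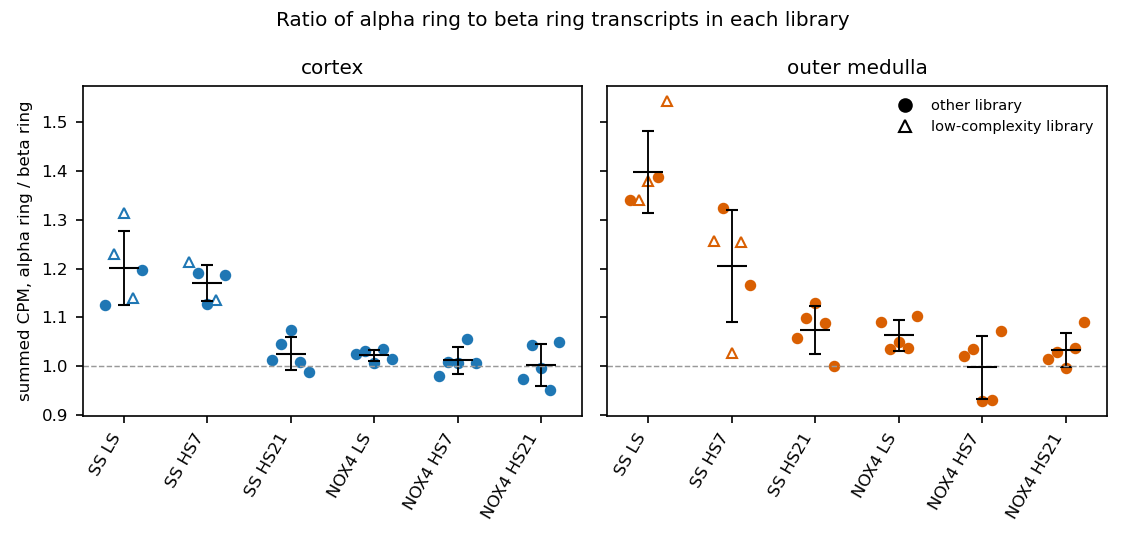
Ratio of summed alpha ring to summed beta ring CPM in each library of cortex (left) and outer medulla (right) by strain and diet, with mean and SD of each group of 5; open triangles are low-complexity libraries. In cortex all 10 SS libraries on LS or HS7 lie at 1.13 or above and all NOX4 libraries lie between 0.951 and 1.06.

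Between tissues, with the 6 strain and diet groups averaged, 28 proteasome genes were lower and 4 were higher in outer medulla than in cortex, where 71.6% of all genes were called, 37.6% higher and 34.0% lower. The median log2 fold change was -0.13. Of the non-ATPase genes 12 of 14 were lower, led by Psmd11 (-0.65 ± 0.04, adjusted p = 9.4e-20), which takes part in building the 26S form, Psmd3 (-0.50 ± 0.04, adjusted p = 1.59e-16) and Psmd6 (-0.34 ± 0.03, adjusted p = 8.47e-16). The ATPases had 5 of 6 lower, the beta ring 5 of 7 and the alpha ring 3 of 7. The 4 higher genes were Psme2 (0.49 ± 0.05, adjusted p = 1.44e-11), Psmg1 (0.33 ± 0.07), Psmg3 (0.26 ± 0.07) and Psmc3ip (0.32 ± 0.10). Beside these differences, 5 of 5 thick ascending limb markers were higher, and 6 of 6 markers of proximal tubule segments 1 and 2 and 5 of 5 podocyte markers were lower in outer medulla, and their part in the proteasome differences was not tested. Of 9 tested macrophage and other leukocyte markers 8 were higher in outer medulla.

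Whether the strain difference itself was unequal in the 2 tissues was tested in a fit of all 60 libraries, a comparison added after the data were seen. In 6 genes the strain difference was more positive in outer medulla, and in none more negative, with 11.0% of all genes called, 7.52% more positive and 3.48% more negative. They were Psmb5 (0.26 ± 0.07, adjusted p = 0.00756), Psmc1 (0.21 ± 0.06, adjusted p = 0.0184), Psmd8 (0.27 ± 0.08, adjusted p = 0.0277), Psmc6 (0.18 ± 0.06, adjusted p = 0.0281), Psmd12 (0.16 ± 0.05, adjusted p = 0.0299) and Psmb6 (0.27 ± 0.09, adjusted p = 0.0335). With all libraries of a replicate number left out in turn, between 1 and 5 genes passed, with 1 without replicate 1 or 4 and 2 without replicate 2. Without the low-complexity libraries 12 passed, in a fit that called 20.9% of all genes. With DESeq2 size factors in edgeR, 2 genes passed (11.3% of all genes), and 6 did in the DESeq2 test (13.7%). Segment 3 markers moved the same way, with all 5 more positive in outer medulla, and their part in this difference was not tested.

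Genes that work with the proteasome were taken from lists, whose counts are to be read against the 31.7% of all genes called between strains in cortex and the 30.4% in outer medulla. Of 10 tested proteasome partners, 3 were higher and 3 lower in NOX4 cortex, and 3 higher and 4 lower in NOX4 outer medulla. The deubiquitinases of the cap, Uchl5 (-0.29 ± 0.06, adjusted p = 0.000891) and Usp14 (-0.22 ± 0.05, adjusted p = 0.0011), were lower in NOX4 cortex, and Sem1 (0.30 ± 0.07, adjusted p = 0.0012), a small lid subunit, was higher. In outer medulla the ubiquitin receptor of the cap, Adrm1, was higher (0.39 ± 0.07, adjusted p = 0.000405) and Zfand5 was lower (-0.27 ± 0.06, adjusted p = 0.0019). Of 12 tested ubiquitin genes and chain receptors, 6 were higher and 1 lower in NOX4 cortex and 4 higher and 1 lower in NOX4 outer medulla. In cortex Ubqln4, which carries ubiquitin-tagged proteins to the proteasome, was higher in NOX4 (0.23 ± 0.04, adjusted p = 0.000188).

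Of 12 genes known to regulate proteasome genes, 3 were higher and 1 lower in NOX4 cortex and 3 were lower in NOX4 outer medulla, shares near those over all genes. Nfe2l1, the gene of NRF1, did not pass in either tissue (0.09 ± 0.04, adjusted p = 0.11 in cortex, -0.20 ± 0.16, adjusted p = 0.345 in outer medulla). Ddi2, the protease that activates NRF1, was lower in NOX4 cortex (-0.34 ± 0.06, adjusted p = 0.000173) and fell in SS cortex at HS21 (-0.68 ± 0.11, adjusted p = 0.000169). In outer medulla its strain difference did not pass (0.28 ± 0.15, adjusted p = 0.154). Nfe2l2, the gene of NRF2, was higher in NOX4 cortex (0.17 ± 0.05, adjusted p = 0.00574) and lower in NOX4 outer medulla (-0.24 ± 0.05, adjusted p = 0.000951), and its strain differences in the 2 tissues were unequal (-0.40 ± 0.07, adjusted p = 7.09e-05). Foxo4 was higher in NOX4 cortex (0.23 ± 0.04, adjusted p = 0.000156) and Stat3 lower in NOX4 outer medulla (-0.26 ± 0.07, adjusted p = 0.00871).

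The immunoproteasome subunits, which replace the catalytic beta subunits under interferon, give a comparison for each active site. After 21 days of salt in SS cortex, Psmb9, which takes the place of Psmb6, rose (0.87 ± 0.17, adjusted p = 0.00125) where Psmb6 rose by 0.25 ± 0.09. Psmb10, which takes the place of Psmb7, rose (0.82 ± 0.17, adjusted p = 0.00198) where Psmb7 fell (-0.32 ± 0.10). Psmb8, which takes the place of Psmb5, was at 0.62 ± 0.24 (adjusted p = 0.0682) and Psmb5 at 0.05 ± 0.06, and neither passed. Of the 9 tested genes of the immunoproteasome and peptide presentation, 5 rose and none fell in that comparison, where 8.42% of all genes were higher and 8.04% lower. Their median log2 fold change was 0.62, and the smallest p was that of the peptide loading factor Tapbp (0.71 ± 0.11, adjusted p = 0.000122). Beside them, 4 of 8 tested macrophage and other leukocyte markers rose, with a summed level of 907.8 to 1144 CPM on LS and 1330.1 to 1734 CPM at HS21 in SS cortex and no marker at 0 in either group, and their part in the rise was not tested. Between strains Psmb8, Psmb9 and Psmb10 did not pass in either tissue. Of that list, Tapbp was higher in NOX4 cortex (0.30 ± 0.06, adjusted p = 0.00052) and Irf1 was lower in NOX4 cortex (-0.22 ± 0.08, adjusted p = 0.0401) and outer medulla (-0.43 ± 0.09, adjusted p = 0.000967). Between tissues 8 of 9 were higher in outer medulla, against 37.6% of all genes. Psmb9 was at 0.98 ± 0.09 (adjusted p = 4.17e-15), Psmb10 at 0.86 ± 0.08 (adjusted p = 8.9e-14) and Psmb8 at 0.91 ± 0.11 (adjusted p = 5.6e-11), while Psmb6, Psmb7 and Psmb5 were lower (-0.12 ± 0.04, -0.19 ± 0.06 and -0.18 ± 0.03).

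The authors' deposited table gives their own calls for comparisons of pairs of groups. In the authors' deposited table at adjusted p under 0.05, NOX4 on LS had 5 proteasome genes higher and 6 lower in cortex (16.6% of all genes called) and 5 higher and 3 lower in outer medulla (17.1%). For SS at HS21 against LS the authors' deposited table has 4 higher and 11 lower in cortex (15.1%) and 3 higher and 4 lower in outer medulla (13.0%). For NOX4 against SS at HS7 the authors' deposited table has 1 higher and 4 lower in cortex (7.10%) and none in outer medulla (1.1%), and at HS21 in cortex 2 higher (9.38%). For SS at HS7 the authors' deposited table calls none in cortex (0.542%) or outer medulla (0.304%), and for NOX4 after salt none in cortex (0.0589% at HS7, 0.177% at HS21) or outer medulla (0.265% and 0.205%). At HS21 the authors' deposited table calls 13 proteasome genes higher in NOX4 outer medulla (25.6% of all genes called), where the edgeR fit of all outer medulla groups called none and a fit of those 2 groups alone called 4 higher (24.2% of all genes, 11.0% higher).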

How the data were processed

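Poly(A) RNA libraries of 60 rat kidney samples were quantified by the authors, and the deposited table holds raw counts per gene. The submitters' processing notes name HISAT2 2.0.5, StringTie 1.3.3b and featureCounts 1.5.0-p3, and the genome build is not given in the sources used here. The deposited table also has the authors' log2 fold changes, p-values and adjusted p-values for pairs of groups and, per the file headers, the gene length in bases.

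Counts were scaled by the TMM method and tested with edgeR 4.0.16 in R 4.3.3 (quasi-likelihood F test, genes kept by filterByExpr per group) in a fit of all 30 libraries of a tissue, or all 60 for comparisons of tissues. P-values were adjusted by Benjamini and Hochberg over all genes tested, and genes with an adjusted p under 0.05 are said to be called. The SE was derived from the fold change and its F statistic. CPM are counts per total scaled by TMM within a tissue, and levels per kilobase use a scaling of all 60 libraries. The script was tested on simulated data. Alternatives were DESeq2 1.42.0, its size factors in edgeR, no filter on low counts, the compared groups alone, the replicate number as a block, the segment 3 marker level as a covariate, leaving out the low-complexity libraries and leaving out each library. The fit without 2 NOX4 HS7 cortex libraries whose names stand outside the run, and the comparison of strain effects between tissues, were added after the data were seen.

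The genes, the pathway lists (proteasome partners, regulators of proteasome genes, ubiquitin genes and chain receptors, immunoproteasome and peptide presentation) and the cell type marker lists were chosen with earlier results of these data known. Named are the catalytic subunits, the activators, the 4 called genes with the highest and the 4 with the lowest fold change between strains, the 3 called genes with the smallest p in each other comparison, genes under the filter, genes never called, and the 2 called genes with the smallest p in each list. Some genes of the ubiquitin list that this rule takes in are not reported here. Other genes are named as members of the calls counted. The symbols Ecpas, Paaf1, Ubb, Ufd1, Tap2 and Pecam1 were not matched to a single gene and were not used. RefSeq tables of the GRCr8 assembly gave promoters and pseudogene names.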

Additional observations from a re-analysis of the deposited data

Results flagged for a closer look

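Among 156 groups of 5 libraries tested over 13 genes and sums, 8 held a library far from the other 4, and chance marks about 1 in 20 such groups. Psmb6 was low in NOX4 HS21 outer medulla replicate 5 (74.5 CPM), Psmb7 stood apart in NOX4 LS cortex replicate 4 (50.9 CPM), and Psme4 stood apart in SS LS cortex replicate 3 (189.8 CPM), a low-complexity library. Psmc3ip stood apart in SS LS outer medulla replicate 5 (2.77 CPM) and SS HS7 outer medulla replicate 1 (4.04 CPM), both of low complexity. Psmc6 did so in SS LS outer medulla replicate 4 (95.1 CPM) and SS HS7 outer medulla replicate 3 (98.1 CPM), and Psmd14 in SS HS7 outer medulla replicate 3 (60.1 CPM), of which only the HS7 library is of low complexity.

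The strain difference was unequal in the 2 tissues for 6 genes by the edgeR test of that difference. On the log2 scale, outer medulla minus cortex, it was 0.26 for Psmb5, 0.21 for Psmc1, 0.27 for Psmd8, 0.18 for Psmc6, 0.16 for Psmd12 and 0.27 for Psmb6.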

How the results depend on the processing

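Of 1073 values of named genes under an alternative, 1013 kept their direction and side of the threshold, 54 lost their call, 1 gained it and 5 turned in direction. Of 369 counts of called genes, 46 moved by over 1.5 times, and the cause was not tested. Both strain counts, averaged over diets, held under every alternative but the segment 3 covariate, with which cortex had 5 calls and outer medulla 6. Leaving out the low-complexity libraries leaves fewer samples. It gave 6 calls between strains on LS in cortex (10.4% of all genes) and 5 in outer medulla (11.3%). At HS7 in outer medulla it gave 16 (16.9%). For SS at HS21 there were then 5 in cortex (5.95%) and 2 in outer medulla (8.66%), and the interaction in cortex had 1 (0.506%). Fits of the compared groups alone gave 9 calls between strains on LS in cortex (19.1% of all genes). They gave 1 at HS7 (1.29%) and 1 at HS21 (8.46%) in cortex, and 0 at HS7 (0%) and 4 at HS21 (24.2%) in outer medulla. For the interaction they gave 4 in cortex (5.37%) and 1 in outer medulla (1.73%). With no filter on low counts SS at HS21 in cortex had 9 (9.70% of all genes). DESeq2 gave 3 and 1 for the interactions (4.07% and 0.792% of all genes) and 1 for SS at HS7 in outer medulla (9.09%). Leaving out 1 library gave 18 to 22 calls between strains in cortex and 18 to 26 in outer medulla, 10 to 15 and 6 to 11 on LS, 9 to 16 and 2 to 17 at HS7, 7 to 13 and 2 to 5 for SS at HS21, 0 to 1 and 0 to 2 for SS at HS7, and 0 to 1 for the interaction in cortex (1 without SS LS replicate 4). Leaving out a replicate number in all 12 groups gave 26 to 34 calls between tissues and 1 to 5 for the difference of strain effects. For that difference DESeq2 size factors in edgeR gave 2 (11.3% of all genes). Shares over all genes are not given here for the fits that leave out 1 library or a replicate number. For SS at HS7, the calls came without SS HS7 replicate 1 or 2. In outer medulla Psmb7 turned from 0.16 to -0.054 with the segment 3 covariate. Psme2, at -0.04 and never called there, was at 0.0065 without the low-complexity libraries and 0.21 with the segment 3 covariate, and between -0.096 and 0.0076 when 1 library was left out. Without the low-complexity libraries Psmc3ip in outer medulla lost its call at 0.26 (0.38 with all libraries), as did, for SS at HS21, Psmb6 at 0.45 (0.50) and Psme4 at -0.40 (-0.40) in outer medulla and Psma6 at -0.17 (-0.26) in cortex. Leaving out the 2 libraries with names outside the run gave 12 higher and 6 lower in cortex, where 28.6% of all genes were called. Psma8, Psmb11 and Psme1 had too few counts to be tested, and Psmd10 (1624 counts) is the least counted gene tested.

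The replicate numbers did not pair the libraries. Between strains 4 of 30 same-numbered pairs deviated together with a correlation over 0.1 (median -0.02), between diets 5 of 40 and between tissues 4 of 30, and a library correlated best with its own number in 6 of 30, 7 of 40 and 7 of 30 cases. With the replicate number as a block the strain counts were 20 in cortex (30.8% of all genes) and 22 in outer medulla (29.6%). On LS they were 13 (21.6%) and 8 (11.5%), and at HS7 15 (16.5%) and 9 (8.86%). For SS at HS21 the block gave 12 (16.7%) and 4 (9.13%), between tissues 33 (70.9%) and for the difference of strain effects 7 (12.5%).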
